A study of Homo sapiens with 6 samples.

Results

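The metallothioneins and zinc transporters described here are 10 genes chosen by name: the metallothionein genes MT1E, MT1F, MT1G, MT1X and MT2A, the transcription factor gene MTF1, the zinc exporter gene SLC30A1 and the zinc importer genes SLC39A6, SLC39A10 and SLC39A14. The deposited table, matched by Ensembl ID to GENCODE 29 symbols, held 9 of them among its 33890 genes. MT1F was not among the genes listed. LN229, an established glioblastoma cell line of human origin, was sequenced as 3 libraries of untreated cells (control) and 3 libraries of cells kept in 800 µM ursodeoxycholic acid (UDCA), a hydrophilic bile acid given to patients with cholestasis, for 48 h. Both groups were grown in the same serum-containing medium, and no other agent or genotype is given in the labels. Whether replicate libraries stem from independent cultures is not stated in the labels, and every p-value below reflects no more than the spread among these 6 libraries, which could be technical.

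Metallothioneins are small cysteine-rich proteins that bind zinc, copper and cadmium in the cytosol. Their genes lie in a cluster on chromosome 16 and are switched on by MTF1, a zinc finger factor that binds metal response elements when zinc in the cytosol rises, and also by glucocorticoids and inflammatory cytokines. Zinc leaves the cytosol through SLC30 (ZnT) transporters and enters it through SLC39 (ZIP) transporters, and SLC30A1, the exporter of the plasma membrane, is a classical MTF1 target. In the brain metallothioneins are made mainly by astrocytes, where metals and oxidative stress are known to induce them.

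The sequences shown first are promoter windows of members whose starts RefSeq places in the table used here, since MTF1 acts through short motifs near the transcript start. Windows of 300 bases, 250 before the start and 50 from it, were found for 6 of the 10 members (RefSeq, GRCh38.p14): MT2A, MT1X, MTF1, SLC30A1, SLC39A6 and SLC39A10, the last with a window for each of 2 starts. MT1E, MT1F, MT1G and SLC39A14 had none. Each is written 5′ to 3′ on the strand of its gene, and capitals mark the core of the metal response element, searched as TGCACNC and TGCGCNC on both strands. The windows are those of MT2A (chr16:56608334-56608633, plus strand), MT1X (chr16:56682220-56682519, plus strand), SLC30A1 (chr1:211579112-211579411, minus strand) and the second start of SLC39A10 (chr2:195656976-195657275, plus strand), chosen as the 3 highest in matches and the member that fell.
MT2A: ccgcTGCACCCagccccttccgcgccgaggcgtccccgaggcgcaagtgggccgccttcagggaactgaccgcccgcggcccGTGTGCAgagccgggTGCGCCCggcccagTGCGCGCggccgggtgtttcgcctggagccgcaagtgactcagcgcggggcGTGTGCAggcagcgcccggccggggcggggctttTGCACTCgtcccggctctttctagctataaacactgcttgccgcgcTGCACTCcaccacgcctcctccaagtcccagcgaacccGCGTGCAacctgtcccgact
MT1X: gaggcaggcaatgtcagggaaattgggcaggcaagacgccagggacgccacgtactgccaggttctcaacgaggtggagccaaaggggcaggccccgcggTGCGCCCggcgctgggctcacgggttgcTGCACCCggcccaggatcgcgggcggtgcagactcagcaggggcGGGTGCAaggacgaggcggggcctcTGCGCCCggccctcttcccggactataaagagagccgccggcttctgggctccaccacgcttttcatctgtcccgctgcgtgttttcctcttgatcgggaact
SLC30A1: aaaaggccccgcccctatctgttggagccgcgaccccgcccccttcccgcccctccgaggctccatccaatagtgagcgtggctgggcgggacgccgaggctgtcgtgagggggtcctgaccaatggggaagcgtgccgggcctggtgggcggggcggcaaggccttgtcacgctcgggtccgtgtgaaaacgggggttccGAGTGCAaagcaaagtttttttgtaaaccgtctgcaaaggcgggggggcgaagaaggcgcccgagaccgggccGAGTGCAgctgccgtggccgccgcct
SLC39A10: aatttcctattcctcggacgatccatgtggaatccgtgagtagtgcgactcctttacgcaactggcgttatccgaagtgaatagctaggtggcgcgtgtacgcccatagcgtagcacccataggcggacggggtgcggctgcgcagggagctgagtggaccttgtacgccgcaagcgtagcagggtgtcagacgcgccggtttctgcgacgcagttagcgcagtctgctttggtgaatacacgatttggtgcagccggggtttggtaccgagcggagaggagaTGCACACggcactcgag

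The MT2A window held 8 separate matches to the metal response element core, the MT1X window 4 and the SLC30A1 window 2. Of all 35116 windows of the same length, 29.55% held at least 1 match, 7.507% at least 2, 0.3389% at least 4 and 0.01709% at least 8. SLC39A6 held 1 match, SLC39A10 held 1 at its second start, from base 34 to base 40 after it, and none at its first, and MTF1 held none. The core of the antioxidant response element bound by NRF2, searched as TGACNNNGC on both strands, overlapped no metal response element match and was found once each in MT2A, MT1X and SLC30A1, against 13.35% of all windows with at least 1. These letters describe the windows and do not show binding by any factor. The starts are those of RefSeq and differ from the gene bounds of GENCODE 29 for each of these members. That of SLC30A1 lies outside the gene as drawn there and the others inside it, from 28 bases in for MTF1, 45 for SLC39A6, 46 for MT1X and 385 for MT2A to 80981 and 81249 for the starts of SLC39A10.

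**Figure D1:**
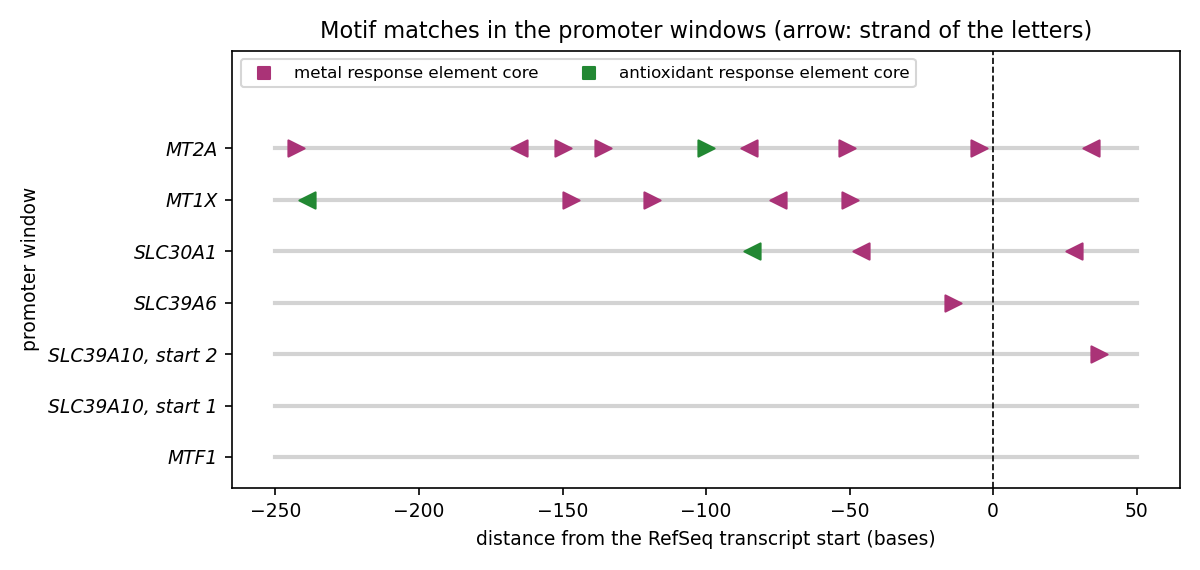
Position of motif matches in the RefSeq promoter windows of 6 members, in bases from the transcript start (dashed line), with the arrow giving the strand of the letters. MT2A carries 8 metal response element cores spread over its window, MT1X 4, SLC30A1 2, SLC39A6 and the second start of SLC39A10 1 each, and MTF1 none.

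Levels are given as FPKM, the reads of a gene per kilobase of its merged exons and per 1000000 reads of the library. In each library 15988951 to 17743022 reads were recovered from the deposited values. Changes are given as ratios of mean FPKM and as log2 changes, taken after adding 1 to FPKM (UDCA minus control), a scale that compresses changes of genes near 1 FPKM. Adjusted p-values come from limma-trend over all 14380 genes tested, with Benjamini-Hochberg adjustment, at a threshold of 0.05. FPKM is a share of the library, so fewer cells that express a gene and less of its RNA per cell cannot be told apart. The cells carried markers of a glioblastoma line in control, with VIM at 167 ± 1.83 FPKM, NES at 148 ± 4.39 FPKM and SOX2 at 76.97 ± 1.49 FPKM (SD, n = 3), while the astrocyte marker GFAP stood at 0.612 ± 0.0807 FPKM. Of the 7 glioma-line markers tested, 5 were lower with UDCA (VIM, NES, CD44, SOX2 and S100B), 1 was higher (EGFR) and 1 was not called (OLIG2). Among all genes tested 35.7% were lower and 45.1% higher. With UDCA, VIM stood at 65.1 ± 0.801 FPKM, NES at 26.9 ± 0.280 FPKM and SOX2 at 2.58 ± 0.0887 FPKM. S100B fell from 286 ± 10.1 to 12.5 ± 0.0593 FPKM. Blood markers summed to at most 0.537 FPKM in any control and 0.486 FPKM in any UDCA library, with CD3E at 0 in each UDCA library, and liver and gut markers summed to at most 0.251 FPKM in any library. Epithelial markers summed to 19.0 to 20.1 FPKM in control and 19.8 to 21.6 FPKM with UDCA, nearly all of it KRT18 and KRT8, with CDH1 and KRT5 at 0 in each control library.

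Most members rose with UDCA. Of the 9 listed, 8 reached 1 FPKM in at least 3 libraries and were tested. Of these, 7 were called higher and 1, SLC39A10, lower. MT1X reached that minimum only through the UDCA libraries, so the filter itself favoured its call of higher. Of all genes tested 80.8% were called in either direction, 45.1% higher and 35.7% lower, so that a call alone is common in these data. The groups did not overlap in any of the 8, nor in 82.8% of all genes tested (46.1% with UDCA above and 36.7% with UDCA below control). The median log2 change of the 8 was 0.95, beside 0.095 for all genes tested. The members, like the other lists below, were chosen with earlier results of these data known. Such medians and counts therefore do not show that a set stands out. The members differed widely in size. Ratios of means of at least 2 upward were found for MT1E, MT1X, SLC30A1 and SLC39A14, beside 18.2% of all genes tested, and ratios of at least 4 for MT1X, SLC30A1 and SLC39A14, beside 6.13%.

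MT2A, the main metallothionein of most human cells (chromosome 16, 56608199 to 56609497, GRCh38, plus strand), stood at 629.7, 571 and 602 FPKM in controls and at 734, 719 and 732 FPKM with UDCA. Every UDCA library was above every control library, but by a small margin next to the other metallothioneins. Its mean rose 1.21-fold, from 601 ± 29.2 to 729 ± 8.28 FPKM (n = 3; log2 change 0.28, SE 0.036, limma adjusted p = 0.00027). It was among the most abundant transcripts of these cells before treatment, at the 99.84th percentile of tested genes by control level, and at the 99.94th with UDCA. The size of its log2 change depends on the scaling between libraries: it was 0.17 with median-ratio scaling and 0.92 with quantile normalization, higher with UDCA and called in both.

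MT1E, a metallothionein of the same cluster (chromosome 16, 56625475 to 56627112, plus strand), was at 9.37, 9.01 and 9.54 FPKM in control and at 35.7, 40.3 and 32.9 FPKM with UDCA. The UDCA libraries all lay far above the control libraries and also spread more. The mean rose 3.90-fold, from 9.30 ± 0.271 to 36.3 ± 3.76 FPKM (n = 3; log2 change 1.85, SE 0.0705, limma adjusted p = 4.43e-07). These values rest on 505 reads over the control group and 1911 over the UDCA group.

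MT1X (chromosome 16, 56682424 to 56684196, plus strand) was close to 0 in control, with 10, 14 and 13 reads, or 0.339, 0.459 and 0.413 FPKM. With UDCA it had 99, 90 and 94 reads, or 3.49, 2.98 and 3.12 FPKM. No UDCA library came near the control range. MT1X was under 1 FPKM in each control library and passed the filter only through the UDCA libraries. Its call and adjusted p-value are therefore not independent of the filter. With no filter on low values it was also called higher (limma adjusted p = 1.99e-05). The ratio of means was 7.92, the highest among the members, from 0.404 ± 0.0606 to 3.20 ± 0.265 FPKM (n = 3), while the log2 change of 1.58 (SE 0.0763, limma adjusted p = 1.48e-06) is held down by the pseudocount of 1. It was 2.71 with a pseudocount of 0.1 and 2.94 with voom on recovered reads.

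MT1G (chromosome 16, 56666731 to 56668065, minus strand) was listed at 0 in all 3 control libraries and in UDCA replicates 1 and 3, with 1 read in UDCA replicate 2. That is under the floor of 3 reads, and no change can be read from it. None of the 7 other functional metallothionein genes searched (MT1A, MT1B, MT1H, MT1HL1, MT1M, MT3 and MT4) was among the genes listed. Of 9 metallothionein pseudogenes searched, MT1L, MT1XP1 and MT2P1 were listed, with 4 reads or fewer in any library.

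**Figure D2:**
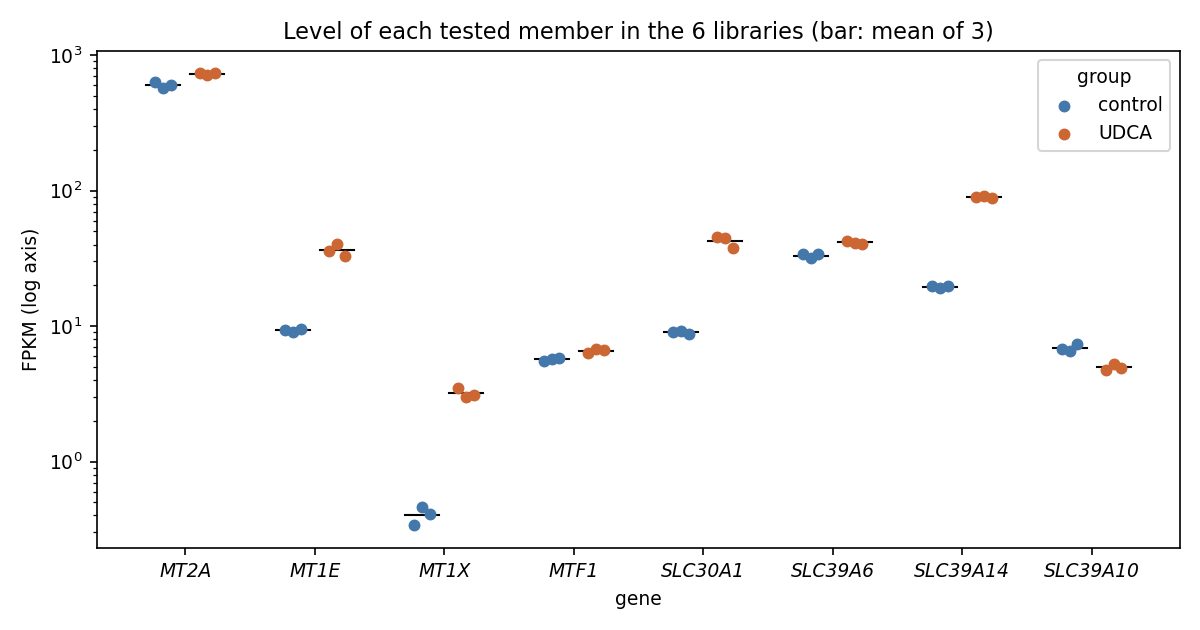
FPKM (log axis) of the 8 tested members in each of the 3 control (blue) and 3 UDCA (orange) libraries, with a bar at each group mean. MT2A stays near the top in both groups, MT1E, MT1X, SLC30A1 and SLC39A14 rise by ratios of 3.90 to 7.92, and SLC39A10 falls.

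MT2A held most of the metallothionein sum in both groups. MT2A, MT1E, MT1X and MT1G together came to 639, 581 and 612 FPKM in control and to 773, 762 and 768 FPKM with UDCA, a ratio of 1.26 on the deposited scale. The sum was not recomputed under other scalings, on which the change of MT2A depends. MT2A made up 98.4% ± 0.0634 of that sum in control and 94.9% ± 0.507 with UDCA (SD, n = 3). The share of MT1E went from 1.52% ± 0.0518 to 4.73% ± 0.514, and that of MT1X from 0.0665% ± 0.0130 to 0.416% ± 0.0316. Within each library MT1E stood at 1.49%, 1.58% and 1.58% of the MT2A level in control and at 4.87%, 5.61% and 4.49% with UDCA. These shares do not change when a library is multiplied by a factor, the groups do not overlap in any of them, and no test was run on them. Quantile normalization is not such a factor. With it the log2 change was 0.92 for MT2A and 1.82 for MT1E, beside 0.28 and 1.85 in the main fit. The shares were not recomputed with it.

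How the reads of near-identical copies and of overlapping exons were counted is not given in the sources used here, so single values carry an uncertainty that the replicates do not show. Of the 50-base stretches in the annotated transcripts of each gene, 3.02% for MT2A, 7.10% for MT1E, 16.5% for MT1G and 18.3% for MT1X also occur in transcripts of another gene. For MT1X the gene sharing most of them is AC026461.1, which covers 321 of its exon bases on the same strand. The merged exon lengths behind FPKM, 1299 bases for MT2A and 1773 for MT1X, span each whole gene because annotated transcripts with retained introns are included, while the principal spliced transcripts have 786 and 450 bases. With reads divided by the principal lengths, an alternative added after seeing the data, MT1X stood at 1.59 ± 0.239 in control and at 12.6 ± 1.04 with UDCA, MT2A at 993 ± 48.2 and 1204 ± 13.7, and MT1E at 13.9 ± 0.405 and 54.3 ± 5.62, each per kilobase and 1000000 reads.

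MTF1, the zinc sensor that drives metallothionein genes (chromosome 1, 37809567 to 37859620, minus strand), was at 5.52, 5.75 and 5.82 FPKM in control and at 6.29, 6.77 and 6.72 FPKM with UDCA. The groups do not overlap, but they lie close together. The ratio of means was 1.16 (log2 change 0.18, SE 0.0432, limma adjusted p = 0.00665). The call was lost with median-ratio scaling, where the log2 change was 0.085 and adjusted p = 0.117; over all alternatives the adjusted p ran from 0.000718 to 0.117. Other factors known to act on metallothionein promoters went both ways. Of 7 tested, MTF1 included, 5 were higher and 2 lower, beside 45.1% and 35.7% of all genes tested. Calls in both directions are thus common in these data. NFE2L2, which encodes NRF2, the activator of antioxidant genes, rose 2.33-fold to 49.3 ± 2.26 FPKM, and NR3C1, the glucocorticoid receptor gene, and STAT3, the mediator of interleukin 6 signals, rose 1.55-fold and 1.31-fold. USF2 was at 24.4 ± 0.600 and 26.5 ± 0.332 FPKM, a call that was lost with median-ratio scaling (adjusted p = 0.827). USF1 fell from 27.9 ± 1.63 to 19.2 ± 0.155 FPKM and SP1 from 26.9 ± 0.743 to 20.96 ± 0.182 FPKM.

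SLC30A1, the exporter ZnT1 that carries zinc across the plasma membrane (chromosome 1, 211571568 to 211578742, minus strand), was at 8.99, 9.24 and 8.70 FPKM in control. With UDCA it was at 45.4, 44.8 and 37.6 FPKM. UDCA replicate 3 was the lowest of its group and still far above control. The mean rose 4.75-fold, from 8.98 ± 0.269 to 42.6 ± 4.35 FPKM (n = 3; log2 change 2.12, SE 0.0722, limma adjusted p = 2.55e-07), which placed it at the 98.1th percentile of tested genes by log2 change.

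The exporter family around it was mostly higher. Of 10 SLC30 genes, 7 were tested. Of these, 6 were higher and SLC30A2 lower, beside 45.1% higher and 35.7% lower among all genes tested. Their median log2 change was 0.69, beside 0.095 for all genes tested. After SLC30A1 came SLC30A6, a partner subunit in the early secretory pathway, which rose 2.33-fold from 8.83 ± 1.15 to 20.5 ± 1.38 FPKM, and SLC30A7, a zinc loader of the Golgi, which rose 2.11-fold from 6.09 ± 0.129 to 12.8 ± 0.662 FPKM. SLC30A5, which pairs with SLC30A6, rose 1.69-fold, SLC30A4 rose 1.76-fold and SLC30A9 rose 1.41-fold. SLC30A2, a vesicular exporter, was the lower member and fell from 5.42 ± 0.406 to 2.89 ± 0.141 FPKM. SLC30A3, SLC30A8 and SLC30A10 were under the minimum; SLC30A10, a manganese exporter, had 12, 0 and 9 reads in the controls and 0 in each treated library.

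SLC39A14, the importer ZIP14 (chromosome 8, 22367249 to 22434129, plus strand), carries zinc, iron and manganese and is known to be induced by interleukin 6 in liver. It was at 19.9, 19.2 and 19.7 FPKM in control and at 90.1, 90.5 and 88.2 FPKM with UDCA. The replicates of each group lay within a few percent of each other, a spread far smaller than the distance between the groups. The mean rose 4.57-fold, from 19.6 ± 0.371 to 89.6 ± 1.26 FPKM (n = 3; log2 change 2.14, SE 0.0235, limma adjusted p = 1.56e-09), on 7015 and 31100 reads.

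SLC39A6, the importer ZIP6 or LIV-1 of the plasma membrane (chromosome 18, 36108532 to 36129385, minus strand), was at 33.8, 31.8 and 33.9 FPKM in control and at 42.8, 41.1 and 40.4 FPKM with UDCA. The groups are separate by a modest step, with a ratio of means of 1.25 (log2 change 0.31, SE 0.0352, limma adjusted p = 0.000134). With median-ratio scaling the log2 change was 0.20 and the call held. SLC39A10, the importer ZIP10 that forms a heteromer with ZIP6 (chromosome 2, 195575977 to 195737702, plus strand), was at 6.79, 6.50 and 7.40 FPKM in control and at 4.78, 5.24 and 4.91 FPKM with UDCA. All UDCA libraries were below all control libraries, and the mean fell 1.38-fold from 6.89 ± 0.461 to 4.98 ± 0.236 FPKM (n = 3; log2 change -0.40, SE 0.0566, limma adjusted p = 0.000464). SLC39A10 is known from other systems as a gene that MTF1 represses when zinc is high.

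The partners SLC39A6 and SLC39A10 thus moved in opposite directions, as did the exporter SLC30A1 and the importer SLC39A10. SLC30A1 divided by SLC39A10 was 1.33, 1.42 and 1.18 in the control libraries and 9.50, 8.54 and 7.65 in the UDCA libraries. The ratio of mean values was 6.55 between the groups, which do not overlap, and a factor applied to a whole library does not change it. SLC39A14 divided by SLC39A6 was 0.591 ± 0.0107 in control and 2.16 ± 0.0524 with UDCA (SD, n = 3), so that the order of these importers changed. No test was run on these ratios.

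**Figure D3:**
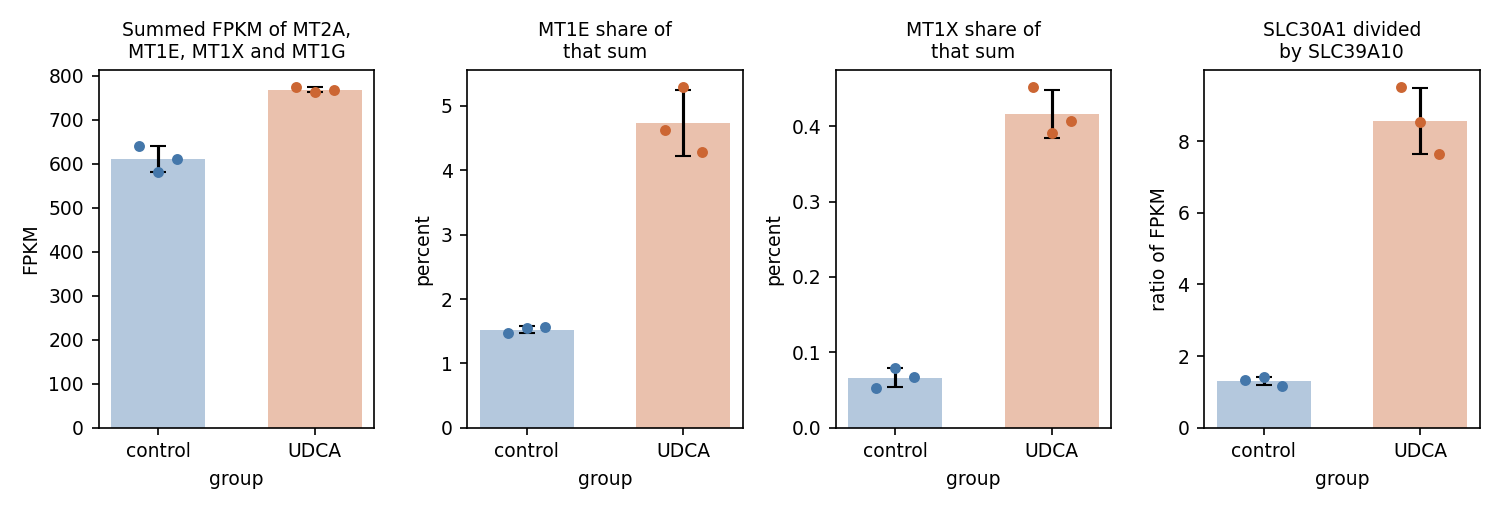
Values in each library (points), with group means (bars) and SD (error lines, n = 3), for the summed metallothionein FPKM, the shares of MT1E and MT1X in that sum, and the ratio of SLC30A1 to SLC39A10. The sum rises by a ratio of 1.26, while the share of MT1E goes from 1.52% to 4.73% and the transporter ratio from 1.31 to 8.56.

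In the importer family 13 of 14 genes were listed and 10 were tested. Of these, 7 were higher, 1 was lower and 2 were not called, beside 45.1% higher and 35.7% lower among all genes tested. Their median log2 change was 0.44, beside 0.095 for all genes tested. SLC39A13, a zinc importer of intracellular vesicles, rose 2.72-fold from 6.78 ± 0.352 to 18.5 ± 0.473 FPKM, second to SLC39A14 by log2 change, and SLC39A9, a Golgi importer, rose 1.54-fold. SLC39A7, which releases zinc from the endoplasmic reticulum, rose 1.33-fold from 64.2 ± 1.01 to 85.6 ± 0.860 FPKM and was the most abundant importer in control. SLC39A11 rose 1.75-fold, and SLC39A3 rose from 3.22 ± 0.104 to 4.83 ± 0.494 FPKM. SLC39A8, the closest relative of SLC39A14, was at 3.99 ± 0.181 and 3.83 ± 0.175 FPKM (limma adjusted p = 0.43), and SLC39A4, the intestinal importer, at 1.01 ± 0.0614 and 1.07 ± 0.0437 FPKM (limma adjusted p = 0.562). Summed over listed genes, importers went from 154 ± 2.71 to 273 ± 3.00 FPKM and exporters from 51.7 ± 1.12 to 113 ± 7.45 FPKM (SD, n = 3). The largest single rises in these sums were those of SLC39A14, from 19.6 to 89.6 FPKM, and SLC30A1, from 8.98 to 42.6 FPKM. Neither sum was recomputed under other scalings.

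**Figure D4:**
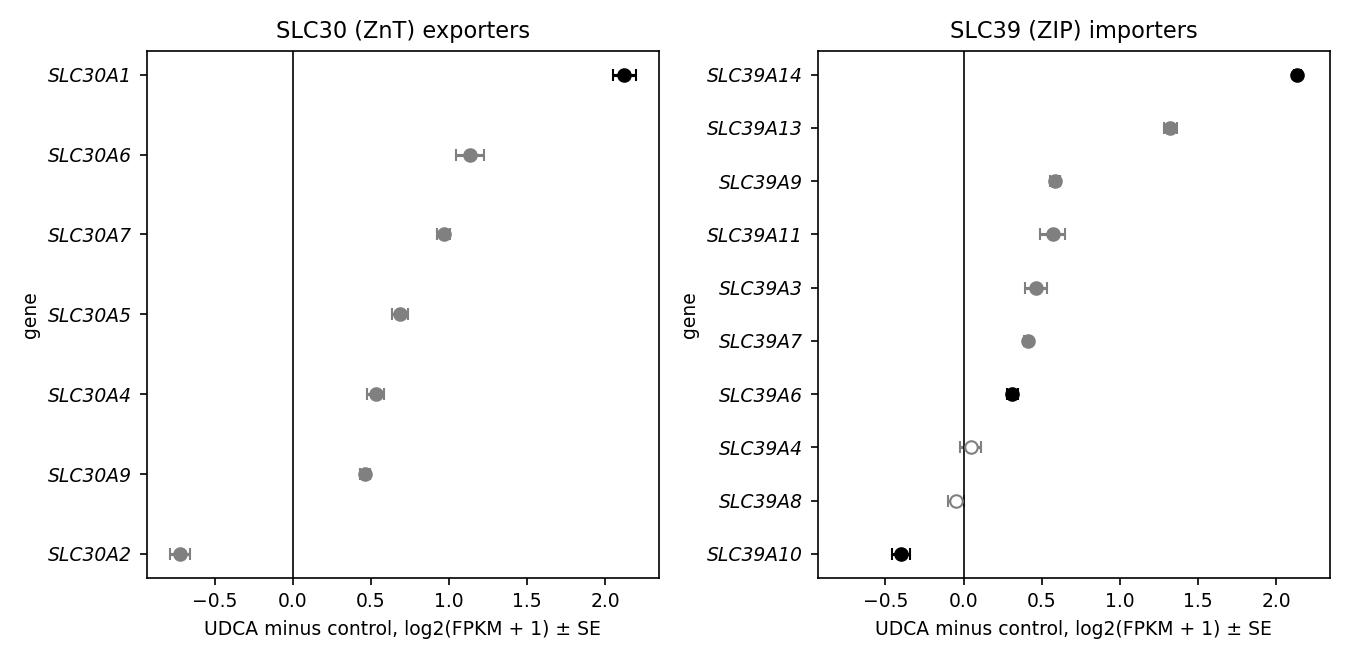
Log2 change with its SE (UDCA minus control, after adding 1 to FPKM) for the 7 tested SLC30 exporters and the 10 tested SLC39 importers; black points are members of the set, grey points other family genes, and open points were not called. SLC30A1 and SLC39A14 lie at 2.12 and 2.14, apart from the rest of their families, and SLC39A10 at -0.40 is the lowest importer.

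By level, the order of the tested members in control was MT2A, SLC39A6, SLC39A14, MT1E, SLC30A1, SLC39A10, MTF1 and MT1X, on FPKM, which is per length. MT1E and SLC30A1 overlapped there. With UDCA the order was MT2A, SLC39A14, SLC30A1, SLC39A6, MT1E, MTF1, SLC39A10 and MT1X. SLC30A1 overlapped both SLC39A6 and MT1E in that group, while SLC39A6 and MT1E did not overlap each other.

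Most other genes known to be induced by zinc or cadmium rose with the metallothioneins. Of 11 tested, 10 were higher and 1 was not called, beside 45.1% higher among all genes tested. Their median log2 change was 2.10, beside 0.095 for all genes tested. The list was chosen with earlier results of these data known. SRXN1, among the 10, was under 1 FPKM in each control library. It passed the filter only through the UDCA libraries, so the filter favoured its call of higher. HMOX1, heme oxygenase 1, rose 26.2-fold to 127 ± 1.62 FPKM. TXNRD1, thioredoxin reductase, rose 10.3-fold from 43.4 ± 1.20 to 446 ± 4.81 FPKM, and GCLM, a subunit of glutathione synthesis, rose 6.88-fold from 8.54 ± 0.381 to 58.7 ± 7.63 FPKM. BAG3, a co-chaperone, was at 40.1 ± 1.32 and 37.4 ± 2.12 FPKM and was not called. Most genes of that list also answer to NRF2 or heat shock factors. Typical glucocorticoid targets split, with 4 of 6 tested higher and 2 lower, beside 45.1% and 35.7% of all genes tested. TSC22D3, which encodes the glucocorticoid-induced leucine zipper, rose 4.52-fold. SGK1 fell 16.4-fold from 8.07 ± 0.308 to 0.493 ± 0.0440 FPKM, and KLF9 fell 3.96-fold. SGK1 was under 1 FPKM in each UDCA library and passed the filter only through the control libraries, so the filter favoured its call of lower.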

How the data were processed

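Polyadenylated RNA was made into Illumina TruSeq libraries, per the labels' protocols. HISAT2, Bowtie2 2.0.6 and the build GRCh38 are named, with no role or order, per the submitters' processing notes; how reads were counted, with or without strand, and any filters: not given in the sources used here. FPKM is the unit of the deposited values, inferred from the numbers: multiplied by merged exon length (GENCODE 29), 100% of values in a library became whole multiples of a single step, within 0.01 reads. Listed coordinates equalled those of GENCODE 29 for 33873 of 33890 genes; the others are mitochondrial and differ in the chromosome name.

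From FPKM, log2(FPKM + 1) was fitted with limma-trend (limma 3.58.1, R 4.3.3), group as the only term, for genes reaching 1 FPKM in 3 or more of 6 libraries, 2-sided, with Benjamini-Hochberg adjustment over 14380 genes. The members and lists were chosen with earlier results of these data known, and no list was tested; 1 blood marker is not reported here. Besides the members, up to 3 called genes per list with the largest log2 change are named, and others where 5 genes or fewer make up a count. Alternatives were quantile normalization, median-ratio scaling, no filter, a pseudocount of 0.1, the replicate number as a block, voom on recovered reads and leaving out each library. The fit was tested on simulated reads for UDCA against control in which 200 genes were changed. With dispersion 0.01 (13692 genes tested), it found 26 of 67 genes at a fold of 1.5. It found 63 of 67 at 2 and 65 of 66 at 4, and made 9 false calls. With dispersion 0.001 it found 56 of 67 at 1.5, 64 of 67 at 2 and 65 of 66 at 4. False calls numbered 8 there. In the data 11624 genes were called, so these counts do not measure the fit under so wide a change. Replicate libraries differed beyond sampling noise (chi-square over its degrees of freedom 1.67 to 2.73) and each counted as 1 sample. Python 3.11.15, pandas 2.3.3 and matplotlib 3.10.9 made tables and plots.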

Additional observations from a re-analysis of the deposited data

How the results depend on the processing

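Of 96 alternative values of the 8 tested members, 95 kept their direction and their side of the threshold; the exception was MTF1 with median-ratio scaling (log2 change 0.085, adjusted p = 0.117), and none reversed. The count of called genes was 11624, and 11218 to 11381 when each library was left out in turn. The median log2 change of all genes was 0.095, and 0.0023 with median-ratio scaling, which called 5826 higher and 5788 lower. Median-ratio scaling also gave 2 lower importers (SLC39A8 in addition), 1 lower gene among those induced by zinc or cadmium (BAG3) and 3 higher promoter factors. No filter on low values gave 2 lower importers. BAG3 was also called lower, for a count of 1, with the replicate block and with voom; leaving out each library in turn gave a count of 0 to 1, the 1 being without UDCA replicate 3. Reversed values, none called, were those of SLC39A4 (-0.012) and COMMD1 (-0.031) with median-ratio scaling and SCO1 (0.0096 without control replicate 1, down to -0.0497 without control replicate 2). With the principal transcript length MT2A made up 98.5% of the metallothionein sum in control and 94.7% with UDCA.

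Libraries of the same number did not deviate together (correlations of -0.0012 to 0.0143, beside -0.0502 to 0.0416 for other pairs). No pairing was seen, and the labels do not say whether same-numbered libraries share a culture or batch. The replicate block called 11503 genes and changed no call of a member. Depth limits MT1G and the pseudogenes, which had 4 reads or fewer in any library. The causes of these differences were not tested.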

Other observations

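Genes that handle copper, which metallothioneins also bind, went both ways. Of 8 tested, 3 were higher, 3 lower and 2 not called, close to the shares of all genes tested (45.1% higher, 35.7% lower). Their median log2 change was 0.02, beside 0.095 for all genes tested. SLC31A1, the copper importer CTR1 of the plasma membrane, rose 3.27-fold from 11.2 ± 0.579 to 36.7 ± 1.16 FPKM, and CCS, the copper chaperone of superoxide dismutase, rose 1.64-fold from 9.99 ± 0.410 to 16.4 ± 1.11 FPKM. COX17, which passes copper to cytochrome oxidase, rose 1.47-fold. The chaperone gene ATOX1 fell 1.71-fold from 6.46 ± 0.260 to 3.79 ± 0.0817 FPKM, and the export pump ATP7A, which takes copper from ATOX1, fell 1.24-fold from 3.32 ± 0.0665 to 2.68 ± 0.0743 FPKM. COX11 fell 1.37-fold, and SCO1 and COMMD1 were not called.

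SLC39A1, a zinc importer known to be widely expressed, was listed at 0.450 ± 0.114 FPKM in control and 0.130 ± 0.0258 FPKM with UDCA (SD, n = 3), under the minimum for testing. Other annotated genes cover 69.1% of its exon bases, AL358472.7 on the same strand above all, and how such reads were counted was not tested. MT2A, the most abundant member, moved by 0.28 on the log2 scale as deposited and by 0.92 with quantile normalization, which maps each library onto a common distribution.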
